A study of Mus musculus with 26 samples.

Results

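The response to 15 min of insulin was measured in brown preadipocytes whose only intact insulin receptor was a truncated form that kept the extracellular and transmembrane domains and 36 juxtamembrane residues inside the cell (JMO). The comparison takes 6 of the 26 RNA-seq libraries of the series, 3 dishes of JMO cells given 100 nM insulin (JMO insulin) and 3 left without it (JMO basal), and covers the 15402 of 52962 genes with a CPM (counts per 1000000 counts of a library) above 0.5 in at least 4 of the 26 libraries. All cells came from 1 line of SV40 T-antigen-immortalized brown preadipocytes of newborn mice with floxed *Insr* and *Igf1r*, in which both genes had been inactivated with Cre adenovirus (DKO), and all were starved of serum for 6 h. DKO cells were then transduced with retrovirus carrying the human receptor, as the normal B isoform (IR), the kinase-dead K1030R mutant, ∆CT, which lacks 79 C-terminal residues, or JMO. There were 3 basal and 3 insulin dishes of IR and of K1030R, 3 basal and 2 insulin dishes of ∆CT, and 3 basal dishes of DKO, so the response of cells with no introduced receptor was not measured. Each receptor was studied in 1 stably transduced line, and the replicates are dishes of that line. P-values therefore describe the spread between dishes.

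Insulin binds the extracellular part of its receptor, which activates the tyrosine kinase inside the cell, and the phosphorylated receptor recruits IRS and SHC proteins that feed the PI3K-AKT and RAS-ERK cascades. The juxtamembrane segment links the membrane to the kinase domain and holds a docking site for IRS and SHC proteins, so a receptor cut after it carries no kinase of its own. Within minutes of such signals cells transcribe immediate early genes without new protein synthesis. Many of these are short genes for transcription factors, phosphatases, and mRNA decay factors, and SRF, the ternary complex factors, and CREB are among the regulators of their promoters.

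The 6 JMO libraries held between 17253434 and 24439952 counts, so a CPM of 0.5 stood for 8.63 to 12.2 counts, and the biological coefficient of variation between dishes over the whole series was 4.44%. The *Insr* count was at CPM 74.2, 68.9, and 69.8 in the basal and 75.3, 73.2, and 77.3 in the insulin dishes, and *Igf1r* at CPM 30.7, 29.7, and 29.8 in the basal and 34.4, 32.5, and 30.4 in the insulin dishes. Neither gene passed the test for insulin in JMO cells (adjusted p = 0.784 and 0.701, from the quasi-likelihood F-test of edgeR adjusted over all genes). In the 3 DKO dishes *Insr* was at CPM 22.3 to 24.8 and *Igf1r* at CPM 24.7 to 28.6, and in the 23 libraries of the receptor lines *Insr* was at CPM 65.5 to 99.7. The counts are sums over whole genes, so they do not show the deleted segments and do not check the inactivation. Whether reads of the human receptor were assigned to mouse *Insr* is not given in the sources used here, so its count may hold reads of the introduced construct, which differs between lines. Of 14 brown preadipocyte markers 11 were tested, with *Pdgfra* at a mean CPM of 220.2 and *Pdgfrb* at 581, whereas *Prdm16* (0.0399) and *Ebf2* (0.149) were near 0 and *Dlk1* was at 0. The markers of mature brown adipocytes *Ucp1* and *Adipoq* were near 0. *Gm42418*, a locus that overlaps ribosomal RNA, took 4.47% to 4.87% of counts in the basal and 1.46% to 3.05% in the insulin dishes, so the groups did not overlap, and *Lars2*, which shares such reads, took 0.511% to 0.551% and 0.227% to 0.469%. The second insulin dish had the lowest share and stood farthest from its group, since its chi-square over genes, divided by the degrees of freedom, was 9.65 and 12.3 against the other dishes and 3.84 between those. Results are therefore also given without that dish and with the share as a covariate, an alternative added after the data had been seen.

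Insulin raised a small set of immediate early genes in JMO cells and lowered almost none. In edgeR's test against a fold of at least 1.5 (adjusted p below 0.05) 6 genes were called higher and 0 lower, 0.0390% and 0% of the genes tested. They were the transcription factor genes *Fos* and *Egr1*, the early-response gene *Ier2*, the phosphatase gene *Dusp1*, the matricellular protein gene *Ccn1*, and the noncoding RNA *Dnm3os*. Their mean levels rose 1.9- to 2.26-fold. Without a minimum fold 51 genes were called higher and 5 lower (0.331% and 0.0325%), while 1079 genes had an unadjusted p below 0.05. Over all genes tested the median log2 fold change was -0.00079 and 49.6% of the changes were positive. The 3 insulin dishes lay wholly above the 3 basal dishes for 1157 genes and wholly below for 957 (7.51% and 6.21%), and all 56 called genes were among these. Without the second insulin dish all 6 genes still passed the minimum fold and 26 genes were called without one (25 higher), and with the *Gm42418* and *Lars2* share as a covariate 5 of the 6 still passed (not *Ier2*) and 19 were called without one (18 higher). All 51 genes called higher kept a positive log2 fold change with the covariate. The JMO groups did not overlap in the share, so a call lost there does not tell insulin and the share apart.

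*Fos* (ENSMUSG00000021250, chromosome 12:85473890-85477273, on GRCm38 as are all positions), which encodes a subunit of the AP-1 transcription factor, was at CPM 5.81, 4.74, and 5.05 in the basal and 12.1, 10.9, and 12.5 in the insulin dishes. The groups were well apart. The log2 fold change was 1.17 ± 0.11 (n = 3 and 3 dishes), with an adjusted p of 1.03e-08 by edgeR (0.00237 against the minimum fold). Here and below, ± after a log2 fold change is the SE from the fit of all 26 libraries, not from the JMO dishes alone. *Egr1* (ENSMUSG00000038418, chromosome 18:34859823-34864984), a zinc finger transcription factor, was at CPM 108, 105, and 115 in the basal and 254, 234, and 243 in the insulin dishes. All insulin dishes were above all basal dishes by more than the spread within either group (log2 fold change 1.15 ± 0.06, adjusted p = 8.56e-11 by edgeR, 3.64e-06 against the minimum fold). *Ier2* (ENSMUSG00000053560, chromosome 8:84661331-84662852), an early-response gene whose product acts in transcriptional regulation, was at CPM 15, 17.8, and 15.7 in the basal and 39.4, 31.1, and 34.1 in the insulin dishes. The log2 fold change was 1.12 ± 0.11 (adjusted p = 7.61e-06 by edgeR, 0.0299 against the minimum fold). Its insulin dishes were more spread than those of *Egr1*, and of the 6 genes it had the largest p against the minimum fold.

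*Dusp1* (ENSMUSG00000024190, chromosome 17:26505590-26562128), whose product dephosphorylates MAP kinases, was at CPM 11.3, 12.2, and 10.9 in the basal and 24.5, 22, and 27.2 in the insulin dishes. The lowest insulin dish was well above the highest basal dish (log2 fold change 1.10 ± 0.07, adjusted p = 2.59e-12 by edgeR, 2.24e-05 against the minimum fold). *Ccn1* (ENSMUSG00000028195, chromosome 3:145646976-145649981), which encodes a secreted integrin ligand of the extracellular matrix, was at CPM 39.2, 42.4, and 38.4 in the basal and 83.8, 67.6, and 76.3 in the insulin dishes. Its second insulin dish was the lowest of the insulin group (log2 fold change 0.93 ± 0.07, adjusted p = 1.03e-08 by edgeR, 0.0168 against the minimum fold). *Ccn1* and *Ier2* lost the call at the minimum fold, although not their direction, when the first or the third dish of either JMO group was left out.

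*Dnm3os* (ENSMUSG00000078190, chromosome 1:162217623-162225550) is transcribed from the strand opposite to *Dnm3*, inside that gene, and is the host transcript of miR-199a and miR-214. It was at CPM 42.5, 41.1, and 42.2 in the basal and 94.3, 90.4, and 95.7 in the insulin dishes, the tightest of the 6 genes within each group relative to its mean. The log2 fold change was 1.16 ± 0.05, with an adjusted p of 1.01e-16 by edgeR (2.47e-09 against the minimum fold). *Dnm3* itself had a mean CPM of 5.08 in basal and 5.36 in insulin dishes and did not pass the test (log2 fold change 0.08, adjusted p = 0.981). The mature miRNAs below, from RefSeq on GRCm38.p6, all lie in annotated *Dnm3os* exons and are shown because they are the products for which the transcript is known. The libraries were made from polyadenylated RNA and do not measure them. Capitals mark the seed, bases 2 to 8, and no seed is shared between them.
miR-199a-5p (chr1:162217844-162217866, plus strand): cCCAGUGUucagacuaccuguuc
miR-199a-3p (chr1:162217883-162217904, plus strand): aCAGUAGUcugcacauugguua
miR-214-5p (chr1:162223397-162223418, plus strand): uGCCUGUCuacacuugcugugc
miR-214-3p (chr1:162223438-162223459, plus strand): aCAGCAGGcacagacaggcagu

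**Figure D1:**
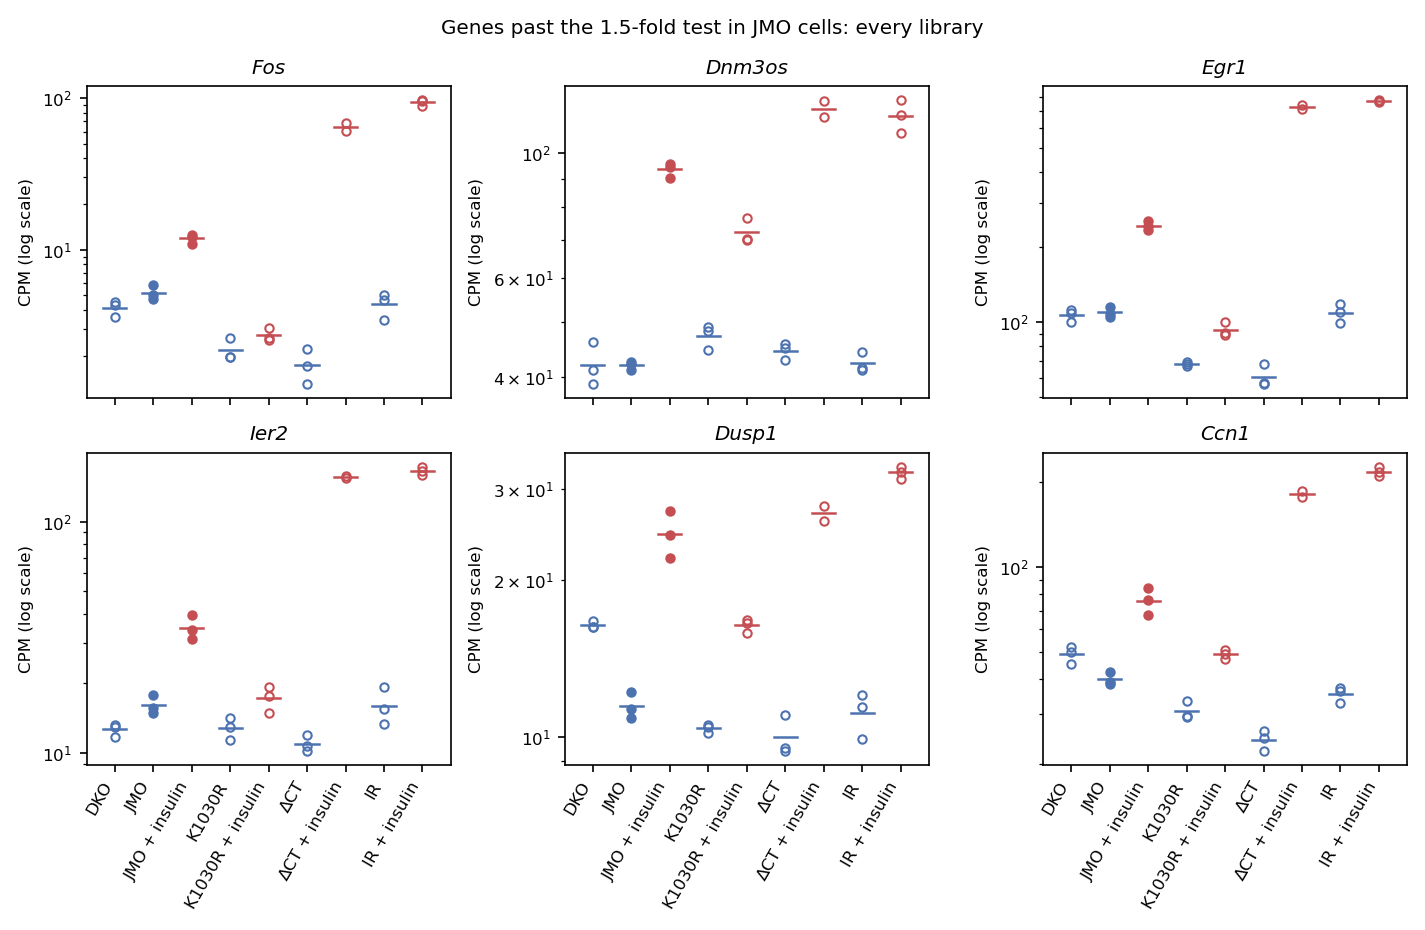
CPM (log scale) of the 6 genes called at the minimum fold of 1.5 in JMO cells, in each of the 26 libraries. Each circle is a dish, filled for JMO and open for the other lines, blue for basal and red for insulin, and bars are group means. The JMO insulin dishes lie above the JMO basal dishes in every panel, and for *Fos*, *Egr1*, *Ier2*, and *Ccn1* far below the insulin dishes of ∆CT and IR cells.

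Promoters of the genes called higher are shown for *Dnm3os*, *Zfp36*, *Dusp1*, and *Btg2*, because each holds a motif of a factor known to act on immediate early genes. Windows of 300 bases around RefSeq starts (GRCm38.p6), 250 of them before the start, were searched on both strands for the CArG box bound by SRF, the CRE motif TGACGTCA bound by CREB, and the AP-1 motif TGACTCA, which do not overlap each other in letters. Of the 51 genes called higher 38 matched a window by symbol. The CArG box was in a window of 4 of them (10.5%: *Dnm3os*, *Egr2*, *Rnd3*, and *Zfp36*), against 1.59% of 10829 tested genes with a window and 1.63% of all 32851 windows. TGACGTCA was in 5 (13.2%: *Btg2*, *Ch25h*, *Dusp1*, *Plk2*, and *Ppp1r15a*), against 3.33% of tested genes and 1.79% of windows, and TGACTCA in 4 (10.5%), against 4.76% and 5.20%. A gene can have more than 1 window, so shares by gene and by window are not alike. The 38 genes had 58 windows and the 10829 tested genes 13757. By window, the CArG box was in 12.1% and 1.32% of these, TGACGTCA in 8.62% and 2.81%, and TGACTCA in 6.90% and 3.98%. These shares are descriptions of letters in a window and were not tested. Below, the 250 bases before each start are printed with the match in capitals. The CArG box began 33 bases before the start of *Dnm3os* and 58 before that of *Zfp36*, and TGACGTCA 143 bases before the start of *Dusp1* and 166 before that of *Btg2*.
Dnm3os (chr1:162217373-162217622, plus strand): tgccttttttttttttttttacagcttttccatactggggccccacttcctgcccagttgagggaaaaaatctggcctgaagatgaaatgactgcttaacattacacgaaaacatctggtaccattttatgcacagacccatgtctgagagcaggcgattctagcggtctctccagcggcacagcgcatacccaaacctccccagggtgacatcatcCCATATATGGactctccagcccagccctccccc
Zfp36 (chr7:28379229-28379478, minus strand): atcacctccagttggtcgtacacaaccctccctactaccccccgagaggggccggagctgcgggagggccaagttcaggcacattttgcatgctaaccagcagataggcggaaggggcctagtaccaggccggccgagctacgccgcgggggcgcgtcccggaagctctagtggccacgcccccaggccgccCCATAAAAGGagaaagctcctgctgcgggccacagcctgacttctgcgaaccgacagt
Dusp1 (chr17:26508473-26508722, minus strand): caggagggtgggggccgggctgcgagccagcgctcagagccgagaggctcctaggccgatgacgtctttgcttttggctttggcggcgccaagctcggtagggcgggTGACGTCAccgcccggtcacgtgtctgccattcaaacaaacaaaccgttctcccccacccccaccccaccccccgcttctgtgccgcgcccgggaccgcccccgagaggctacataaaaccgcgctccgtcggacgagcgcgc
Btg2 (chr1:134079156-134079405, minus strand): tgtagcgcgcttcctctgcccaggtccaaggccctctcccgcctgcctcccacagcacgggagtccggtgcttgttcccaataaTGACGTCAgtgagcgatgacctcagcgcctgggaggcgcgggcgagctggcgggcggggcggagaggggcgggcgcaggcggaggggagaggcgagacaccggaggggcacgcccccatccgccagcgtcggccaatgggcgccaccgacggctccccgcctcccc

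The 45 genes that were called higher only without a minimum fold had log2 fold changes between 0.13 and 0.71. Transcription factors of the same families were among them. *Junb*, an AP-1 subunit, was at CPM 37.5, 38.8, and 34.8 in the basal and 60.7, 52.3, and 60.1 in the insulin dishes (log2 fold change 0.64 ± 0.10, adjusted p = 0.00599 by edgeR). *Jun* was at CPM 60.8, 60.7, and 63.3 in the basal and 77.7, 74.7, and 79.5 in the insulin dishes (0.33 ± 0.06, adjusted p = 0.015 by edgeR). In both genes all insulin dishes were above all basal dishes. *Egr2* was at CPM 6.91, 5.41, and 6.99 in the basal and 9.97, 8.42, and 9.45 in the insulin dishes (log2 fold change 0.52 ± 0.10, adjusted p = 0.00998 by edgeR). ENSMUSG00000116458 had the same counts in every library and is counted with *Egr2*, and likewise ENSMUSG00000097629 with *Clcf1*, so the 51 identifiers stand for 49 count profiles. The Krüppel-like factor genes *Klf2* and *Klf6* rose by log2 fold changes of 0.36 and 0.17 (adjusted p = 0.0107 and 0.039 by edgeR). *Junb*, *Jun*, *Klf2*, and *Klf6* lost their call with the *Gm42418* and *Lars2* share as a covariate, and *Egr2* kept it. Through the 6 fits that left out 1 JMO dish each, *Junb* kept its call in 6, *Egr2* in 4, *Klf2* in 3, *Jun* in 2, and *Klf6* in 1.

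Genes of the ZFP36 family, whose products bind AU-rich elements and promote mRNA decay, were called higher, namely *Zfp36*, *Zfp36l1*, and *Zfp36l2*. *Zfp36* was at CPM 13.4, 14.7, and 14 in the basal and 21.6, 20.2, and 22.5 in the insulin dishes (log2 fold change 0.61 ± 0.07, adjusted p = 5.44e-07 by edgeR). *Zfp36l1*, from a much higher basal level, was at CPM 156, 157, and 156 in the basal and 189, 189, and 198 in the insulin dishes (0.30 ± 0.03, adjusted p = 8.38e-07 by edgeR). *Zfp36l2* was at CPM 133, 132, and 122 in the basal and 161, 168, and 163 in the insulin dishes (0.35 ± 0.06, adjusted p = 0.015 by edgeR). No insulin dish of the 3 genes overlapped a basal dish. *Zfp36* and *Zfp36l1* kept their call under every alternative, whereas *Zfp36l2* lost it with the *Gm42418* and *Lars2* share as a covariate and in 5 of the 6 fits that left out a JMO dish, the second insulin dish among them. *Btg2*, an antiproliferative protein that promotes deadenylation, was at CPM 31.1, 32.1, and 30.3 in the basal and 44.5, 43.4, and 44.2 in the insulin dishes. Its log2 fold change was 0.50 ± 0.05 (adjusted p = 1.03e-08 by edgeR), and its 3 insulin dishes lay between 43.4 and 44.5.

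Members of the list of IER and stress-response genes were also called higher. *Ier3*, a regulator of apoptosis, was at CPM 33, 34, and 32.8 in the basal and 52.4, 46.5, and 49.2 in the insulin dishes (log2 fold change 0.57 ± 0.06, adjusted p = 2.69e-07 by edgeR). *Sgk1*, a kinase activated downstream of PI3K, was at CPM 84.2, 82.3, and 78.2 in the basal and 126, 113, and 119.9 in the insulin dishes (0.55 ± 0.09, adjusted p = 0.00339 by edgeR). Both were separated between the groups in all dishes. *Ppp1r15a*, which directs dephosphorylation of eIF2α, was at CPM 19.3, 19.2, and 20.9 in the basal and 27.7, 24.5, and 25.9 in the insulin dishes (0.40, adjusted p = 0.00037 by edgeR). The polo-like kinase gene *Plk2* was at CPM 110.4, 111, and 106 in the basal and 139.6, 132, and 143 in the insulin dishes (0.34, adjusted p = 0.000389 by edgeR). *Ier5* was at CPM 37.6, 39.8, and 35 in the basal and 46.1, 47.9, and 46 in the insulin dishes (0.32, adjusted p = 0.00838 by edgeR). It lost the call with the covariate and without the third basal or the second insulin dish, while the others of these genes kept theirs under every alternative. *F3*, of the CCN and YAP target list, which encodes tissue factor, the cell-surface initiator of blood coagulation, was at CPM 54.5, 49.8, and 55 in the basal and 73.8, 69.9, and 74.2 in the insulin dishes (log2 fold change 0.45 ± 0.04, adjusted p = 4.64e-09 by edgeR) and had the smallest p of the genes outside the 6.

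Besides *Rhob* and *Mdm2*, the genes of the next sentences, with *Plk2* and *Ier5* above, fall outside the rule by which genes were named and were picked after their values had been seen. Also called higher were *Vegfa* (angiogenic growth factor, log2 fold change 0.24), *Clcf1* (cytokine of the interleukin-6 family, 0.35), *Adamts1* (extracellular protease, 0.19), and *Ch25h* (cholesterol 25-hydroxylase, 0.41). The genes of the small GTPases RHOB and RND3 rose by log2 fold changes of 0.29 and 0.25. *Ccnl2* (0.27), *Rsrp1* (0.21), *Prpf38b* (0.20), *Srsf11* (0.20), and *Nktr* (0.17) were called higher at these log2 fold changes, as were *Pcyt2* of phosphatidylethanolamine synthesis (0.25) and *Aox1*, an aldehyde oxidase (0.21). Adjusted p-values of these 13 genes ranged from 0.00076 to 0.0458 in edgeR's test. None of the 13 was called with the *Gm42418* and *Lars2* share as a covariate. When each of the 6 JMO dishes was left out in turn, *Rnd3* and *Ccnl2* kept the call in 6 fits, *Srsf11* in 5, and *Prpf38b* in 4. *Rsrp1* and *Aox1* kept it in 3, *Vegfa*, *Rhob*, *Nktr*, and *Pcyt2* in 2, *Clcf1* in 1, and *Adamts1* and *Ch25h* in 0. *Adamts1* kept its call in 15 of 36 alternatives and lost it with RLE scaling and with limma voom. Other protein-coding genes and a pseudogene called higher, *Zfp692*, *Ppp4r1l-ps*, *Ankrd16*, *Tgif1*, *Hdac7*, *Enc1*, *Sertad4*, *Cdip1*, and *Mdm2*, had log2 fold changes from 0.14 (*Cdip1*) to 0.45 (*Zfp692*). None of these was called with the covariate. Through the 6 fits that left out a JMO dish, *Hdac7* and *Sertad4* kept the call in 4. *Ppp4r1l-ps*, *Ankrd16*, and *Cdip1* kept it in 2, and *Zfp692*, *Tgif1*, *Enc1*, and *Mdm2* in 1.

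Of the noncoding genes other than *Dnm3os*, *Gm48796*, antisense to *Jam3*, was at CPM 3.25, 3.06, and 4.56 in the basal and 5.75, 6.48, and 5.51 in the insulin dishes (log2 fold change 0.71 ± 0.15, adjusted p = 0.0218 by edgeR). It lost the call with DESeq2, with the covariate, and in 4 of the 6 fits that left out a JMO dish. *Jam3* was at a mean CPM of 27.5 and 27.1. *Gm42664*, annotated inside an intron of *Ptbp2* on the same strand, was at CPM 9.27, 7.6, and 8.52 in the basal and 12.4, 12.9, and 14 in the insulin dishes (0.62 ± 0.10, adjusted p = 0.000975 by edgeR). *Ptbp2* had a log2 fold change of 0.17 (adjusted p = 0.225). Whether reads of unspliced *Ptbp2* RNA were counted for *Gm42664* was not tested. *Mir22hg*, the host transcript of miR-22, was at CPM 19.2, 17.4, and 19.7 in the basal and 27.9, 26.6, and 27.9 in the insulin dishes (0.55 ± 0.12, adjusted p = 0.0458 by edgeR). It kept its call in 14 of 36 alternatives and lost it when any 1 of the 6 JMO dishes was left out. The call was also lost with RLE scaling, with replicate number as a block, with the covariate, and in fits without a dish of another line.

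The 5 genes called lower changed little except for the least expressed. *Gm10827*, a long intergenic noncoding RNA, was at CPM 1.5, 1.99, and 1.59 in the basal and 0.742, 0.663, and 1.01 in the insulin dishes (log2 fold change -1.07 ± 0.25, adjusted p = 0.039 by edgeR). *Yae1d1* was at CPM 36.6, 36.3, and 36.3 in the basal and 31.3, 30.1, and 29.8 in the insulin dishes (-0.26, adjusted p = 0.0103 by edgeR), and *Clk1*, a kinase of SR proteins, was at CPM 121, 120.1, and 127 in the basal and 103, 111, and 107 in the insulin dishes (-0.20, adjusted p = 0.0192 by edgeR). *Cebpg*, a C/EBP family transcription factor, and *Zfp322a* fell by 0.19 and 0.25 on the log2 scale. None of the 5 was called with the covariate, and none kept its call through all 6 fits that left out a JMO dish, against 18 of the 51 called higher.

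**Figure D2:**
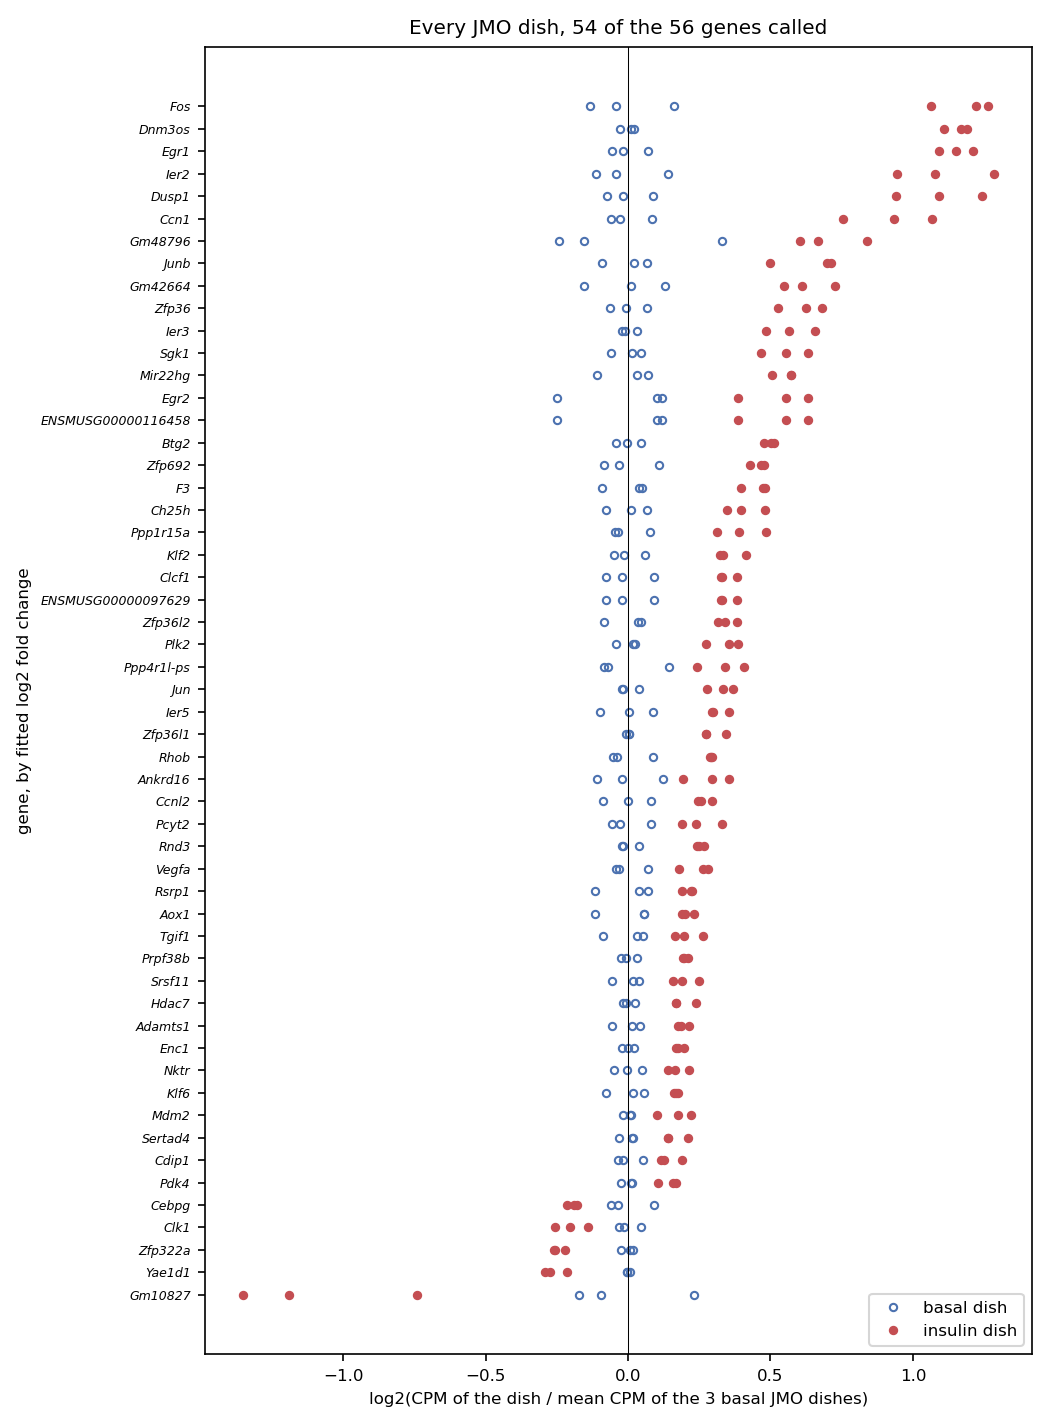
log2 of the CPM of each JMO dish over the mean CPM of the 3 basal JMO dishes, for 54 of the 56 genes called without a minimum fold, ordered by fitted log2 fold change. Open blue circles are basal and filled red circles insulin dishes. The groups do not overlap for any gene, and the call favors genes of that kind. The insulin dishes lie within 1 log2 unit of the basal mean for all genes but *Gm10827* and the 6 called at the minimum fold.

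**Figure D3:**
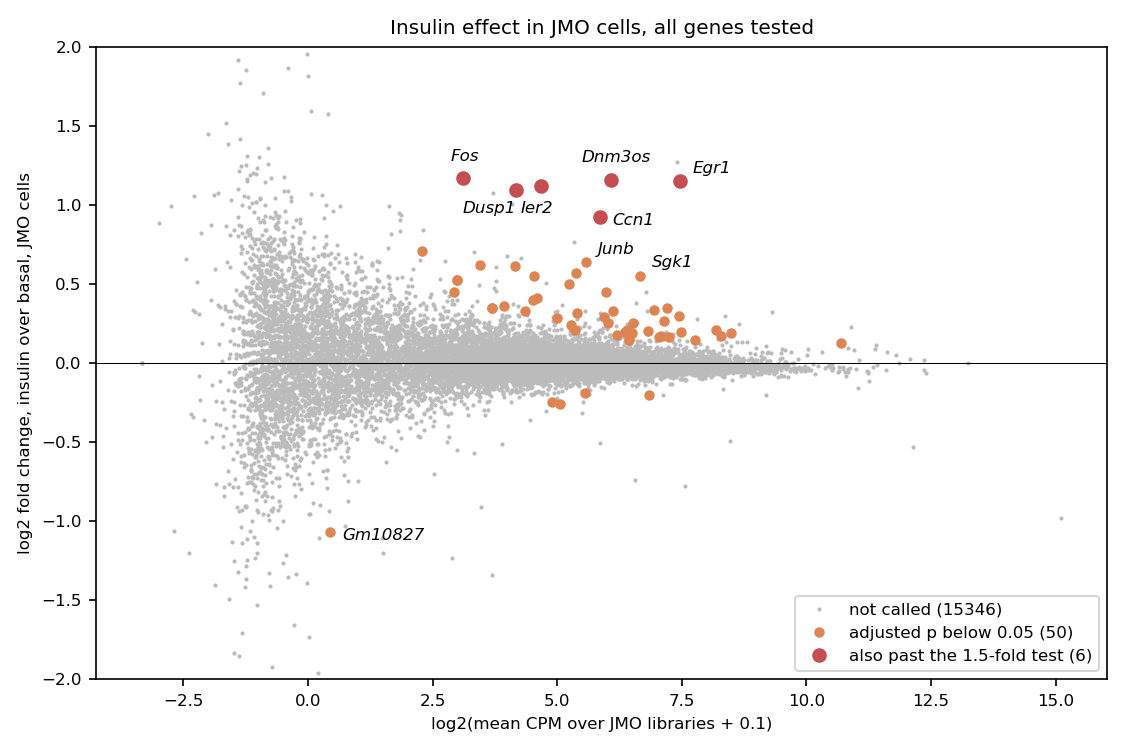
log2 fold change of insulin over basal in JMO cells against log2 of the mean JMO CPM plus 0.1, for the 15402 genes tested, with 43 genes beyond the axis limits of 2. Grey points were not called, orange points were called without a minimum fold, and red points also at the minimum fold of 1.5. Called genes are nearly all above 0, and the grey point at the far right is *Gm42418*.

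Lists of genes around insulin signaling and the early response were compared by the number of members called. Of all genes tested, 0.331% were called higher and 0.0325% lower. Of 7 tested genes of the FOS and JUN family, 3 were called higher (*Fos*, *Junb*, and *Jun*), and the median log2 fold change was 0.29. *Fosb* was at CPM 2.07, 3.01, and 2.92 in the basal and 3.38, 2.76, and 3.6 in the insulin dishes, with overlapping groups and a log2 fold change of 0.29 (adjusted p = 0.795 by edgeR). Of 5 genes of the EGR family and their NAB corepressors 2 were called higher (*Egr1* and *Egr2*, median 0.06). *Egr3* was at CPM 12, 14.5, and 14.8 in the basal and 15.1, 12.8, and 15 in the insulin dishes (0.06, adjusted p = 0.963 by edgeR). Of 18 other early-response transcription factors 2 were called (*Klf2* and *Klf6*, median 0.09). *Nr4a1*, an orphan nuclear receptor, was at CPM 4.88, 4.69, and 5.4 in the basal and 6.68, 5.56, and 4.78 in the insulin dishes. *Hes1* was at CPM 6.71, 6.94, and 6.74 in the basal and 8.76, 9.39, and 8.77 in the insulin dishes, without overlap, and its adjusted p was 0.0526 by edgeR. It passed with no filter, with replicate number as a block, and in 4 fits without a dish of another line.

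Of 16 IER and stress-response genes 7 were called higher (*Ier2*, *Ier3*, *Sgk1*, *Ppp1r15a*, *Plk2*, *Ier5*, and *Rnd3*), with the highest median of the lists with at least 5 tested genes, 0.33. Of 9 mRNA decay factors 4 were called (*Zfp36*, *Zfp36l1*, *Zfp36l2*, and *Btg2*, median 0.05). Of 15 ERK phosphatases and Sprouty or SPRED inhibitors 1 was called (*Dusp1*, median 0.07). Of 15 CCN proteins and YAP targets 2 (*Ccn1* and *F3*, median 0.0030) were called, of 11 long noncoding host transcripts 2 (*Dnm3os* and *Mir22hg*, median 0.08), and of 14 p53 targets 2 (*Btg2* and *Mdm2*, median 0.09). *Dusp6*, a phosphatase of ERK, was at CPM 16.3, 15.4, and 16.9 in the basal and 22.1, 20.2, and 20.2 in the insulin dishes and *Spred1* at CPM 125, 128, and 129 in the basal and 123, 121, and 130.2 in the insulin dishes. Neither passed the test (log2 fold change 0.36 and -0.03, adjusted p = 0.0801 and 0.958 by edgeR). *Dusp6* did pass with limma voom, with only the groups compared in the fit, with no filter, and in 5 fits without a dish of another line, but in none of the 6 without a JMO dish. With the *Gm42418* and *Lars2* share as a covariate the counts were 1 for the FOS and JUN family, 2 for EGR and NAB, 0 for the other transcription factors, 5 for IER and stress, 3 for mRNA decay, 1 for ERK phosphatases and inhibitors, 2 for CCN and YAP, 1 for noncoding hosts, and 1 for p53 targets.

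Genes tied to the metabolic side of insulin action hardly moved in JMO cells. Of 39 components of the insulin receptor pathway 0 were called, with log2 fold changes between -0.07 and 0.12. In IR and in ∆CT cells 1 of the 39 was called in each, higher. Of 15 metabolic insulin targets 0 were called in JMO (median -0.01), 1 in IR (higher, median -0.03), and 0 in ∆CT cells (median -0.0034). At the share over all genes tested, 0.331% higher and 0.0325% lower, calls in lists of this size would be rare. *Fasn*, fatty acid synthase, was at CPM 635, 636, and 592 in the basal and 651, 600.0, and 596 in the insulin dishes, and *Scd2*, a stearoyl-CoA desaturase, at CPM 2157, 2182, and 1974 in the basal and 2182, 2179, and 2039 in the insulin dishes. Of 17 FOXO targets, which insulin is known to lower, 1 was called and it was higher. This was *Pdk4*, a kinase that inhibits pyruvate dehydrogenase, at CPM 202, 207, and 207 in the basal and 221, 230.5, and 229 in the insulin dishes (log2 fold change 0.14 ± 0.03, adjusted p = 0.0202 by edgeR). *Pdk4* kept its call in 2 of the 6 fits that left out a JMO dish and lost it without the second insulin dish. It was also not called with no filter on low counts or with the covariate. Of the same 17 FOXO targets, 3 were called higher and 0 lower in IR cells, and 4 higher and 0 lower in ∆CT cells. No member was called in the lists of SRF targets of the actin cytoskeleton (15 tested, median -0.03), NF-κB and inflammatory genes (20, 0.08), cAMP and CREB targets (11, 0.02), NOTCH, BMP, and TGF-β target repressors (9, 0.17), heat shock and unfolded protein genes (13, -0.0028), or brown preadipocyte markers (11, 0.00079). In the last 3 groups *Skil* was at CPM 80.5, 80.6, and 82.8 in the basal and 80.1, 81.2, and 84.4 in the insulin dishes, *Hspa5* at CPM 821, 837, and 845 in the basal and 820.3, 824, and 854 in the insulin dishes, and *Col1a1* at CPM 3706, 3752, and 3748 in the basal and 3868, 3726, and 3618 in the insulin dishes.

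The inflammatory genes *Cxcl1* and *Ccl2* illustrate separation of dishes without a call. *Cxcl1*, a chemokine, was at CPM 295, 296, and 294 in the basal and 367, 359, and 363 in the insulin dishes (log2 fold change 0.30, 95% confidence interval 0.13 to 0.47, adjusted p = 0.211 by edgeR). It passed with no filter, with only the groups compared in the fit, and in 2 fits without a dish of another line. *Ccl2* was at CPM 490.0, 490.5, and 489.5 in the basal and 531, 511, and 526 in the insulin dishes (0.09, -0.06 to 0.24, adjusted p = 0.887 by edgeR). Markers of other cell types were also without a call. Of 41 markers of mature adipocytes and of myeloid, endothelial, epithelial, muscle, and Schwann or neural cells, 13 were tested and 0 were called. The summed CPM of the myeloid list ran from 25.4 to 26.9 in basal and from 25.3 to 27.8 in insulin dishes, and that of the endothelial list from 8.42 to 11.9 and from 9.73 to 18.1. The sum for the muscle list ran from 3.74 to 5.05 and from 4.95 to 5.36, and that of the Schwann and neural list from 6.02 to 7.04 and from 6.02 to 6.63. The groups overlapped for each list. *Adgre1*, *Cldn5*, *Epcam*, *Myod1*, and *Sox10* were at 0 in all 6 libraries. In RNA from whole dishes, fewer cells with a transcript and less of it per cell cannot be told apart.

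**Figure D4:**
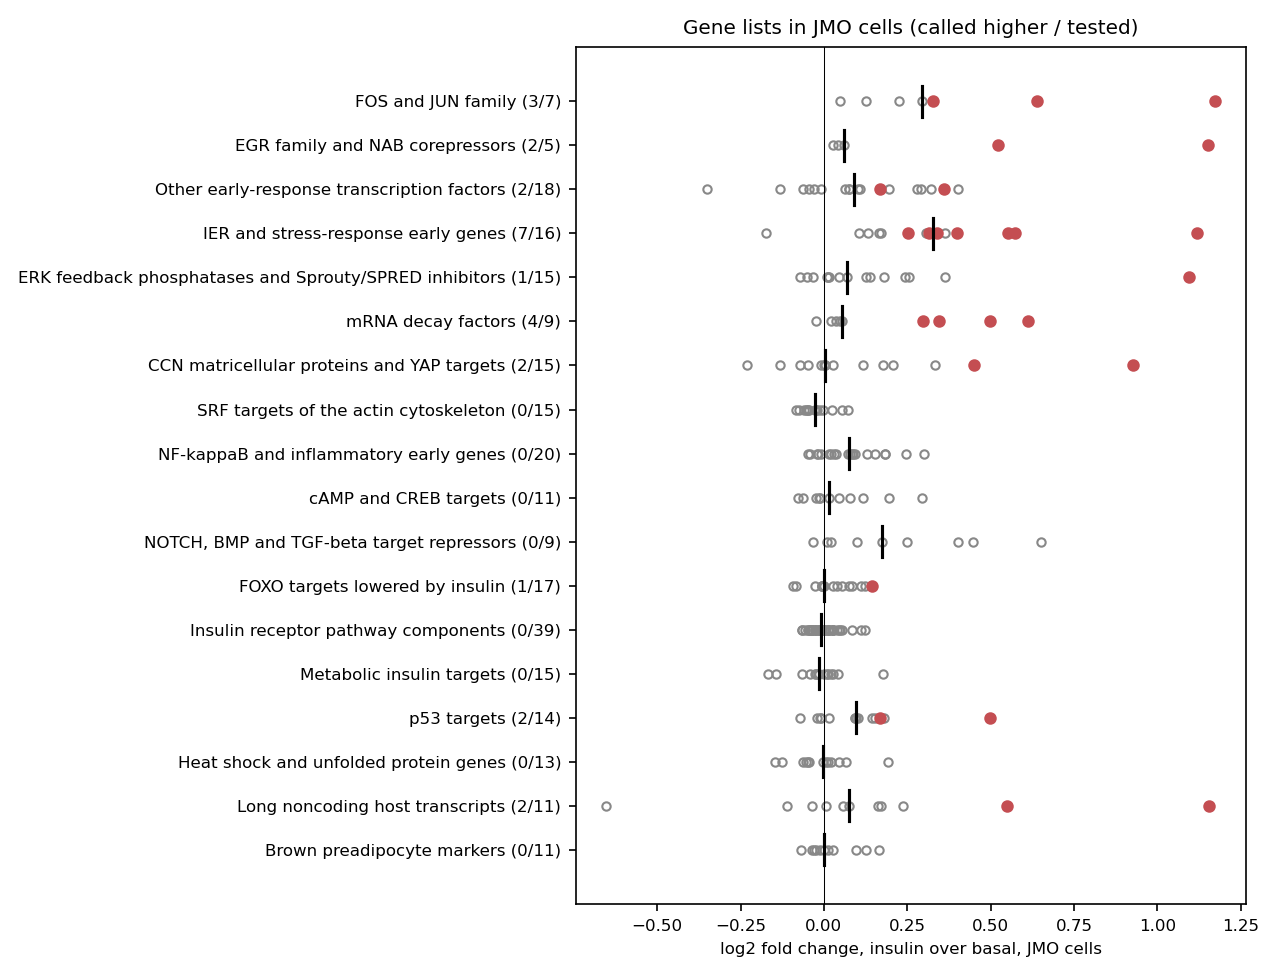
log2 fold change of insulin over basal in JMO cells for the tested members of 18 gene lists. Filled red circles were called without a minimum fold, open circles were not, black ticks are list medians, and the numbers beside each name are members called higher and members tested. Called members sit in the early-response lists at the top, and pathway components and metabolic targets sit near 0.

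The same genes were read in the other receptor lines, whose dishes are not those of the JMO contrast. All 26 libraries were fitted together, however, and the groups share 1 dispersion estimate per gene. The calls in different lines are therefore not independent of each other. In IR cells 215 genes were called higher by insulin without a minimum fold (1.40%), in ∆CT cells 144 (0.935%), and in K1030R cells 17 (0.110%). Of the 51 genes called higher in JMO cells, 42 were called higher in IR, 39 in ∆CT, and 11 in K1030R cells. These are 82.4%, 76.5%, and 21.6% of the JMO genes, and 19.5%, 27.1%, and 64.7% of the genes called higher in each of the other lines. The log2 fold change was positive for 51 of the 51 genes in IR and in ∆CT and for 47 in K1030R cells, against 47.5%, 44.3%, and 50.3% of all genes tested. In IR cells *Gm42418* took 4.02%, 5.75%, and 4.30% of counts in the basal and 4.60%, 2.78%, and 1.78% in the insulin dishes. In ∆CT cells it took 4.09%, 4.34%, and 4.64%, and 2.18% and 4.13%. In K1030R cells it took 3.64%, 3.08%, and 2.82%, and 3.91%, 2.74%, and 3.12%. Calls within these lines were not made with the covariate, so whether the share bears on this overlap was not tested.

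The difference of the insulin effects was then tested gene by gene. Larger and smaller, here and in the closing sections, refer to the signed difference of log2 fold changes, not to the size of a response. The effect differed between JMO and IR cells for 43 genes (0.279%), smaller in JMO cells for all 43, and between JMO and ∆CT cells for 40 (0.260%), smaller for 39. Without the third basal IR dish the genes that differed from IR were 97, with 41 larger and 56 smaller in JMO cells. With DESeq2 2 of 52 were larger. For *Fos* the log2 fold change was 1.17 in JMO, 4.41 in IR, and 5.20 in ∆CT cells (difference from IR -3.24, 95% confidence interval -3.56 to -2.92, adjusted p = 1.12e-16 by edgeR). After insulin its CPM was 11.8 ± 0.852 (SD, n = 3) in JMO, 93.6 ± 4.06 (n = 3) in IR, and 64 ± 5.61 (n = 2) in ∆CT cells, from basal means of 5.2 ± 0.55, 4.37 ± 0.81, and 1.74 ± 0.465 (n = 3 each). *Egr1* reached 243 ± 10 in JMO against 768 ± 5.87 in IR cells, from basal levels of 109.6 ± 4.9 and 109 ± 9.7 that overlapped (difference of the effects -1.66, -1.84 to -1.48, adjusted p = 1.41e-11 by edgeR). *Ier2*, *Ccn1*, *Junb*, *Zfp36*, *Egr2*, and *Btg2* also had smaller effects in JMO than in IR cells, with differences from -1.67 (*Junb*) to -2.49 (*Egr2*). The 1 gene with a positive difference between JMO and ∆CT cells, named after its values had been seen, was *Pgls*, a pentose phosphate pathway enzyme. Its log2 fold changes were opposite in sign, 0.26 in JMO and -0.45 in ∆CT cells (adjusted p of the difference 0.0166 by edgeR). No gene passed this test with a larger effect in JMO than in ∆CT cells when the second basal, the third basal, the first insulin, or the second insulin JMO dish or the third basal ∆CT dish was left out. The *Insr* count, which may hold reads of the construct, had a log2 fold change of 0.08 in JMO and of 0.37 in IR cells (adjusted p of the difference 0.0294 by edgeR).

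By contrast, 35 of the 51 genes did not pass the test of a difference from IR or from ∆CT cells, and their median log2 fold change was 0.27 in JMO, 0.23 in IR, and 0.26 in ∆CT cells. The other 16 (15 count profiles) passed against both lines and had medians of 0.52, 2.39, and 2.50. This split follows from the tests and is not evidence that the 35 effects were equal. *Dnm3os* and *Dusp1* were among the 35. *Dnm3os* reached a CPM of 93.5 ± 2.74 in JMO, 116 ± 7.77 in IR, and 119.9 ± 5.46 in ∆CT cells. Its effect differed from that in IR cells by -0.31 (95% confidence interval -0.46 to -0.15, adjusted p = 0.0847 by edgeR). *Dusp1* reached 24.6 ± 2.56, 32.2 ± 0.844, and 26.9 ± 1.2. It had a difference from IR of -0.43 (-0.65 to -0.22, adjusted p = 0.0756 by edgeR). For both, the interval excludes 0 before adjustment over all genes. *F3* (0.45 in JMO, 0.56 in IR), *Plk2* (0.34 and 0.45), *Zfp36l1* (0.30 and 0.34), and *Sgk1* (0.55 and 0.90) were further members. The intervals of their differences from IR were -0.22 to 0.00, -0.26 to 0.03, -0.15 to 0.06, and -0.63 to -0.07.

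**Figure D5:**
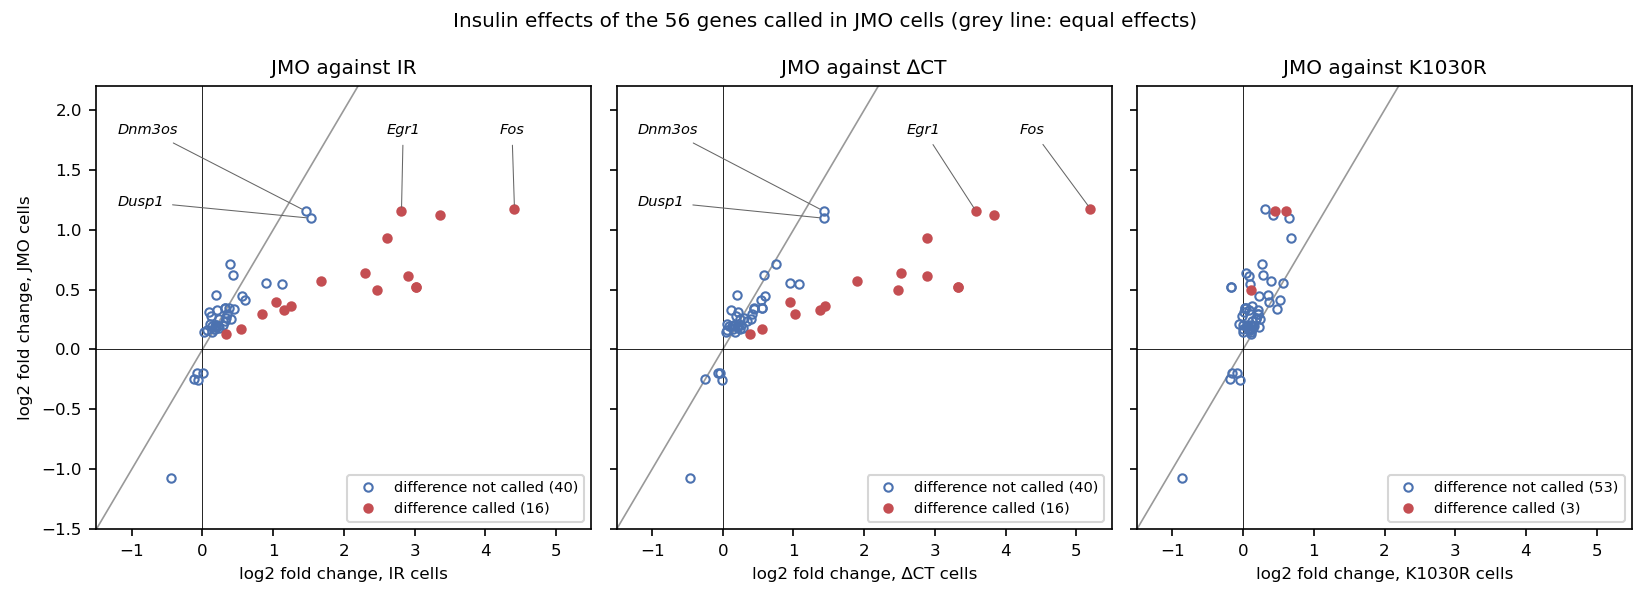
log2 fold change of insulin in JMO cells against that in IR, ∆CT, and K1030R cells for the 56 genes called in JMO cells. Filled red circles passed the test of a difference between the effects (16, 16, and 3 genes), open blue circles did not, and the grey line marks equal effects. Genes with large effects in IR and ∆CT cells lie far to the right of the line, and most of the smaller effects lie beside it.

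Against the kinase-dead receptor, 4 genes differed (0.0260%), all with a higher insulin effect in JMO cells. *Egr1* had a log2 fold change of 1.15 in JMO and 0.46 in K1030R cells (difference 0.70, 95% confidence interval 0.51 to 0.89, adjusted p = 0.00128 by edgeR). *Dnm3os* had 1.16 and 0.61 (difference 0.54, 0.39 to 0.70, adjusted p = 0.000624 by edgeR), and *Btg2* 0.50 and 0.12 (difference 0.38, 0.24 to 0.53, adjusted p = 0.0262 by edgeR). The fourth was *Gm20045*, at 0.00 in JMO and -0.97 in K1030R cells. The other 4 genes past the minimum fold in JMO cells had larger estimates there than in K1030R cells without passing this test. The difference was 0.86 (0.42 to 1.30) for *Fos*, 0.69 (0.32 to 1.06) for *Ier2*, 0.44 (0.22 to 0.67) for *Dusp1*, and 0.25 (0.04 to 0.47) for *Ccn1*. *Plk2* and *Sgk1* were called in both lines and differed by -0.14 (-0.29 to 0.00) and -0.01 (-0.28 to 0.26). The differences of *Egr1* and *Dnm3os* stayed called under every alternative. That of *Btg2* was not called with DESeq2, with limma voom, with only the groups compared in the fit, or in 10 of the 12 fits that left out a JMO or K1030R dish, and that of *Gm20045* was not called in 7 of these 12. Without the second insulin JMO dish both lost the call at about the same size, 0.38 and 0.96 (adjusted p = 0.0507 for each by edgeR).

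The 32 genes (31 count profiles) called higher at the minimum fold in both IR and ∆CT cells were then followed in JMO cells. In JMO cells 32 had a positive log2 fold change, 26 had insulin dishes wholly above the basal dishes, and 17 were called higher, against 49.6%, 7.51%, and 0.331% of all genes tested. The median log2 fold change was 0.36 in JMO, 1.66 in IR, 1.66 in ∆CT, and 0.18 in K1030R cells, and the effect differed between JMO and IR cells for 28 of them and between JMO and ∆CT cells for 27. The 15 that were not called in JMO cells ranged from *Egr3* to *Hes1* (0.06 to 0.40). *Arc*, a synaptic plasticity gene of the early response, was at CPM 10.4, 10.4, and 13.1 in the basal and 15.1, 12.5, and 15.1 in the insulin dishes, with overlapping groups. Its log2 fold change was 0.34 in JMO against 2.81 in IR cells (adjusted p of the difference 3.01e-15 by edgeR). *Errfi1*, a feedback inhibitor of EGF receptors, was at CPM 40.6, 39.3, and 40.2 in the basal and 45.6, 43.3, and 46.1 in the insulin dishes (0.17 against 1.28). *Ptgs2*, the inducible cyclooxygenase, was at CPM 79.9, 77.9, and 74.5 in the basal and 91.3, 87.8, and 97.1 in the insulin dishes (0.25 against 1.64). In these 2 genes the JMO groups did not overlap, although neither passed the test (adjusted p = 0.535 and 0.262 by edgeR). *Ptgs2* did pass with no filter, with only the groups compared, and without the third basal ∆CT dish, and *Arc* with no filter and without the third basal JMO dish.

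In gene structure, the 49 genes called higher that had GENCODE coordinates spanned a median of 7.85 kb, against 20.3 kb for the 15193 genes tested that had coordinates. Of the 51, 44 were protein-coding, beside 13043 of all 15402 genes tested. Within the 51, the 16 that differed from IR had a median span of 3.38 kb and the 35 that did not a median of 11.4 kb. These medians are a description and were not tested.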

How the data were processed

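The sources used here describe mRNA captured with oligo-dT from dishes of starved cells, made into stranded libraries (KAPA mRNA HyperPrep), and sequenced as single-end reads. The values are the expected counts per gene that the authors deposited after trimming with fastp, assignment to Ensembl 98 mouse transcripts with kallisto, and summing to genes with tximport, without a filter or a scaling to depth. Whether kallisto used the strand is not given in the sources used here, and kallisto can split reads between transcripts of similar sequence. All 26 libraries were grouped by their labels and none was left out.

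The counts were rounded and scaled with TMM factors, and the 9 group means were fitted together in edgeR 4.0.16 (R 4.3.3) by robust quasi-likelihood. A gene was kept where its CPM exceeded 0.5 in 4 or more libraries. Insulin was tested in JMO cells with glmTreat at a fold of 1.5 and without it, and the insulin effect of JMO cells was set against that of each other line as a contrast, at a Benjamini-Hochberg adjusted p below 0.05 over all 15402 genes. CPM use the TMM-scaled totals. Alternatives used DESeq2 1.42.0 and limma 3.58.1, among others given in the closing section. The procedure was tested on simulated data. Coordinates are from GENCODE mouse 21 on GRCm38.

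Single genes were named if called at the minimum fold in JMO cells, if among the 15 higher or 15 lower genes with the largest changes called without it, if called in 1 of 24 gene lists (at most 4 per list, or the most expressed members up to 2), if among the 5 largest differences from another line, if called at the minimum fold in both IR and ∆CT cells, or if *Insr* or *Igf1r*. Genes, lists, and tests were chosen with earlier results of these data known. Values of a few genes are not reported here. Columns or files of other assays of the study were not used here.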

Additional observations from a re-analysis of the deposited data

Results flagged for a closer look

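The insulin effect differed between receptor lines by the test of the difference itself (edgeR's quasi-likelihood test, adjusted p below 0.05) for 43 genes between JMO and IR, 40 between JMO and ∆CT, and 4 between JMO and K1030R cells, and the following differences of log2 fold changes were flagged for that reason. JMO minus IR was -3.24 for *Fos*, -1.66 for *Egr1*, -2.24 for *Ier2*, -1.69 for *Ccn1*, -2.49 for *Egr2* and for ENSMUSG00000116458 with the same counts, -1.97 for *Btg2*, -2.47 for *Arc*, and -2.49 for *Egr3*. JMO minus ∆CT was -4.03 for *Fos*, -2.43 for *Egr1*, -2.71 for *Ier2*, -1.96 for *Ccn1*, -2.80 for *Egr2* and for ENSMUSG00000116458, -1.98 for *Btg2*, -2.45 for *Arc*, and -3.12 for *Egr3*. JMO minus K1030R was 0.54 for *Dnm3os*, 0.70 for *Egr1*, 0.38 for *Btg2*, and 0.97 for *Gm20045*. The first 2 sets are smaller effects in JMO cells, and the last is a larger one, in which *Gm20045* had a log2 fold change near 0 in JMO and of -0.97 in K1030R cells.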

How the results depend on the processing

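The 51 genes called higher kept a positive log2 fold change under all 36 alternatives run on them, and 15 kept their call under every one. At the minimum fold, the 6 calls became 62 (36 higher, 26 lower) with no filter on low counts, 3 with limma voom (*Fos*, *Ier2*, and *Ccn1* were lost), 10 at a minimum fold of 1.2, and 0 at 2, and 4 to 6 when each library was left out in turn. Without a minimum fold, the 56 calls (51 higher) became 248 with no filter, 92 with only the groups compared in the fit, 27 at an adjusted p below 0.01, and 19 with the share of *Gm42418* and *Lars2* as a covariate, chosen after seeing the data, and 26 to 70 with 1 library left out (34 without the first and 29 without the second basal JMO dish, 30 without the first and 26 without the second insulin JMO dish). Leaving *Gm42418* and *Lars2* out before scaling, also chosen after seeing the data, kept 48 of the 51. Genes with a different effect in JMO and IR cells, 43, became 247 with no filter (116 larger and 131 smaller in JMO) and 38 to 97 with 1 library left out (97 without the third basal IR dish, 41 larger and 56 smaller); those against ∆CT, 40, became 214 (92 larger) and 34 to 42; and those against K1030R, 4, became 161 with no filter (95 larger), 2 at an adjusted p below 0.01, and 2 to 6 with 1 library left out (2 without the first basal K1030R dish, the first basal JMO dish, or the first or second insulin JMO dish). The cause of these moves was not tested. Residual correlations between basal and insulin JMO dishes were small, 0.0090, 0.042, and 0.087 at equal replicate numbers and -0.074 to 0.032 at unequal ones. Whether equal numbers mark pairs was not tested. With replicate number as a block 64 genes were called without a minimum fold, 54 of the 56 among them, and 6 with it.

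Reversals occurred only for genes that were not called, most of them near 0. The log2 fold change of *Col1a1* became -0.0049 with RLE scaling, -0.0079 with no filter, -0.0049 with DESeq2, and -0.0054 without *Gm42418* and *Lars2*, and that of *Sesn3* -0.0050, -0.0087, -0.0053, and -0.0056 under the same settings, -0.000140 with only the groups compared, and -0.0013 with limma. With the covariate *Fasn* became 0.000494, *Scd2* -0.020, *Des* -0.13, and *Gm20045* 0.067, which was also 0.014 with limma and 0.0042 with the block, and *Cd14* became 7.61e-05 with limma. With 1 library left out the values ran from -0.038 to 0.017 for *Actb*, -0.025 to 0.024 for *Cd14*, -0.024 to 0.025 for *Col1a1*, -0.037 to 0.12 for *Egr3*, -0.13 to 0.0057 for *Fabp4*, -0.055 to 0.010 for *Fasn*, -0.092 to 0.13 for *Gm20045*, -0.020 to 0.0085 for *Hspa5*, -0.13 to 0.010 for *Lyz2*, -0.024 to 0.052 for *Scd2*, -0.046 to 0.041 for *Sesn3*, and -0.010 to 0.027 for *Skil*. At 8.63 to 12.2 counts for a CPM of 0.5, changes of genes near the filter rest on few counts.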
